A study of Mus musculus with 8 samples.

Results

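The thrombospondins and their receptors were taken from the gene counts of primary lung fibroblasts (pFBs) as the 7 genes *Thbs1*, *Thbs2*, *Thbs3*, *Thbs4*, *Comp*, *Cd36* and *Cd47*, chosen by symbol, of 54532 entries in all. The cells were grown from minced lungs of female mice of the strain given as C57/black. The WT group was wild type. The HOMO group was homozygous for a CRISPR/Cas9 knock-in of human IGFBP5 (hIGFBP5), a secreted binding protein of insulin-like growth factors that is linked to fibrosis. The transgene is driven in all tissues by the promoter of elongation factor 1 a1, so hIGFBP5 is not limited to fibroblasts. Cells were used between passages 3 and 7, untreated, and neither the age nor the number of the mice behind the libraries is stated. Poly(A) RNA was sequenced in 4 libraries a genotype, named WT1 to WT4 and HOMO1 to HOMO4, and the question for each gene was whether its mRNA level differed in HOMO vs. WT.

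Thrombospondins are large calcium-binding glycoproteins that cells secrete into the extracellular matrix (ECM), where they tie matrix proteins, proteases, growth factors and cell surface receptors to each other. The trimeric members, thrombospondin 1 and thrombospondin 2, carry type 1 repeats that bind CD36 and inhibit the growth of blood vessels. The pentameric members, thrombospondin 3, thrombospondin 4 and cartilage oligomeric matrix protein (COMP), lack those repeats and are best known from cartilage, tendon, heart and muscle. CD36 is a scavenger receptor and fatty acid transporter of macrophages, platelets, adipocytes and microvascular endothelium. CD47 is a widely expressed membrane protein that binds the carboxyl end of thrombospondin 1 and gives phagocytes a "do not eat" signal through SIRPα. Thrombospondin 1 is also known to activate latent TGF-beta, the main profibrotic cytokine of lung fibroblasts, whereas thrombospondin 2 lacks the short peptide needed for this.

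That difference between the most abundant members here can be read from their coding sequences, which are shown for this reason. The codons of the TGF-beta activating tetrapeptide of *Thbs1*, and the codons aligned with them in *Thbs2*, are in capitals, with the neighbouring codons in lower case, 5′ to 3′ on the coding strand:
Thbs1: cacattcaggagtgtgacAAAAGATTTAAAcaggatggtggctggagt
Thbs2: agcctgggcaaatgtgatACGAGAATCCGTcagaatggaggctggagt
Of the 12 bases in capitals 7 differed, and of all 48 bases 19 differed. On GRCm38 the *Thbs1* stretch lies on the plus strand at the end of exon 8 (chr2:118117633-118117657) and the start of exon 9 (chr2:118118162-118118184). The *Thbs2* stretch lies on the minus strand at the same exon boundary, in exon 8 (chr17:14681665-14681689) and exon 9 (chr17:14681393-14681415). The tetrapeptide was coded once in *Thbs1* and 0 times in the other 4 thrombospondins. The hexapeptide of the type 1 repeats that is known to bind CD36 was coded 2 times in *Thbs1*, 2 times in *Thbs2* and 0 times in *Thbs3*, *Thbs4* and *Comp*. Over the whole coding sequence, *Thbs1* and *Thbs2* shared 63% of 1160 aligned residues, and *Comp* and *Thbs4* 70.8% of 751. No stretch of 50 bases was common to the annotated transcripts of any of the 21 pairs of members.

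The libraries held 17236521 to 31987790 counted reads. Among them, 3 pairs of libraries were close to copies of each other, with a coefficient of variation beyond counting noise of 7.65% for WT1 and WT2, 4.71% for HOMO1 and HOMO2 and 5.07% for HOMO3 and HOMO4, against 30% to 56.4% in the other pairs of a genotype. They differed by more than sampling noise and were kept as 4 libraries a genotype. The calls of the members and of the genes named from the lists are also given with these pairs summed, which leaves 3 WT and 2 HOMO units. The study speaks of the numbered HOMO libraries as mice, but the number of mice or cultures behind the 8 libraries is not stated, and p-values measure only the spread between these libraries, which may be technical. The summed level of the 8 fibroblast markers was high in every library. It was 12383 to 16035 CPM (counts scaled to the TMM size of the library) in WT and 13714 to 24000 CPM in HOMO. *Col1a1* and *Col1a2* had the highest means of the 8 in both genotypes, while *Lum* was as low as 4.07 CPM in WT. Of these 8 genes, 4 had estimates above 0 and 4 below. Their median log2 fold change was 0.01, beside −0.04 for all genes in the fit. DESeq2 called 4 of them, beside 16.5% of all genes. The 1 called by edgeR, beside 12.1% of all genes in the fit, was *Vim*, an intermediate filament gene. It was downregulated by 0.65 on the log2 scale (edgeR adjusted p = 0.043, and 0.476 with the pairs summed). The summed level of macrophage markers stood apart in WT3 and WT4, as described with *Cd36*. The table is labelled "outlierout", and what was removed is not stated.

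*Thbs1* and *Thbs2*, the trimeric thrombospondins, were downregulated in HOMO pFBs, by 7.11-fold and 2.62-fold. *Cd36* was lower on average with a wide spread and was not called, and *Thbs3* and *Cd47* were not called. *Thbs4* and *Comp* were at or near 0 counts in both genotypes and did not enter the fit. A gene was called, or counted as a differentially expressed gene (DEG), at a Benjamini-Hochberg adjusted p under 0.05 in edgeR's quasi-likelihood test with an absolute log2 fold change above 0.6. By this rule 2 of the 5 members in the fit were called, both lower in HOMO, beside 12.1% of all 14150 genes called either way, 6.18% called lower and 5.94% called higher. In 2 of the 5 every WT library was on the same side of every HOMO library, as was so for 27.3% of all genes. DESeq2, the tool of the study, called 3 of the 7, adding *Cd36*, beside 16.5% of all genes. With the near-identical libraries summed, edgeR called 0 members, beside 0% of 16130 genes, of which 2057 had an unadjusted p under 0.05.

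**Figure D1:**
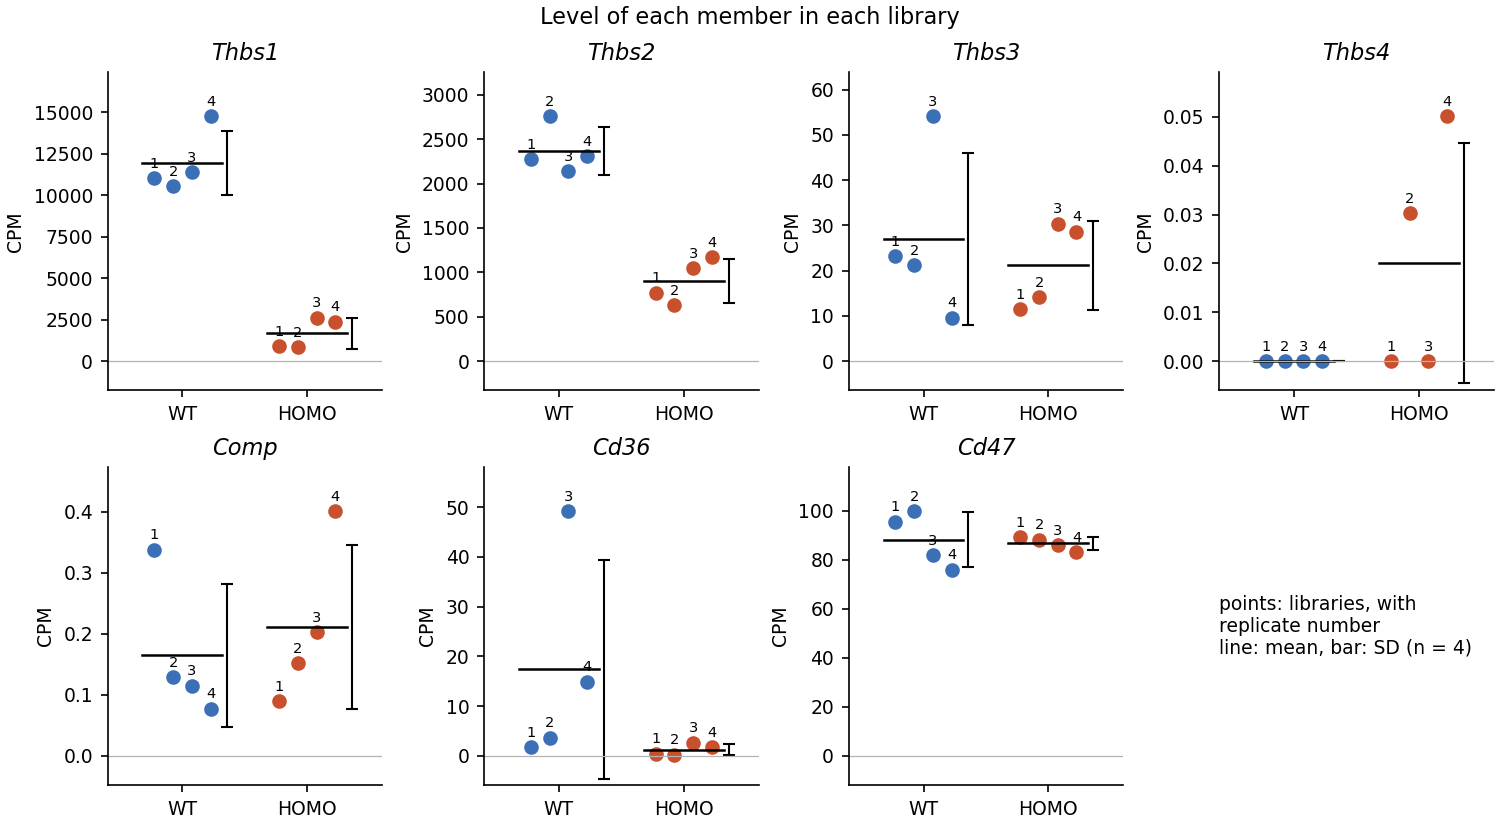
Level of each member in CPM (linear axes that differ between panels) in the 4 WT (blue) and 4 HOMO (red) libraries; numbers are replicate numbers, the line is the mean and the bar the SD (n = 4). The genotypes are apart for *Thbs1* and *Thbs2* and overlap in the other 5 panels.

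*Thbs1* (ENSMUSG00000040152.8, chr2:118111876-118127133, plus strand, GRCm38) had 195999, 245938, 198729 and 381208 counts over WT1 to WT4. Over HOMO1 to HOMO4 it had 19830, 27898, 51437 and 47439. No other gene had as many counts in any of the WT libraries, where *Thbs1* alone took 1.05% to 1.31% of all counts, while its rank in HOMO1 to HOMO4 was 110, 111, 20 and 23. Scaled to library size, the levels were 11027, 10550, 11404 and 14757 CPM in WT and 884, 844, 2607 and 2378 CPM in HOMO. The lowest WT library was thus far above the highest HOMO library. The WT mean was 11934 ± 1914 CPM against a HOMO mean of 1678 ± 945 CPM (SD, n = 4 each), a difference of 10256 CPM, the largest drop in mean CPM of the 14150 genes in the fit. The log2 fold change was −2.83 (standard error 0.43, 95% confidence interval −3.82 to −1.84, edgeR adjusted p = 0.00707). It ranged from −3.12 to −2.60 with 1 library left out (adjusted p from 0.00863 to 0.0248), and *Thbs1* was called each time. With the near-identical libraries summed, the log2 fold change was −2.86 and the call was lost (adjusted p = 0.246). In poly(A) RNA of whole cultures, fewer cells of a type and less RNA per cell cannot be told apart.

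Within HOMO, *Thbs1* fell into 2 levels, with HOMO3 and HOMO4 together 2.88-fold above HOMO1 and HOMO2. Within each near-identical pair the ratio was between 0.912 and 0.957. In WT, WT4 stood 1.37-fold above WT1 and WT2, and WT3 was close to them at 1.06-fold. A lincRNA, *Gm29233*, lies on the opposite strand over 3.42% of the exon bases of *Thbs1*, and whether counting used strand is not stated.

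*Thbs2* (ENSMUSG00000023885.9, chr17:14665500-14694235, minus strand), whose product is a matricellular inhibitor of angiogenesis needed for normal collagen fibrils, had 40403, 64285, 37287 and 59673 counts over WT1 to WT4. The HOMO counts were 17244, 20721, 20642 and 23336. The levels were 2273, 2758, 2140 and 2310 CPM in WT and 769, 627, 1046 and 1170 CPM in HOMO. All WT libraries lay above all HOMO libraries, and HOMO3 and HOMO4 were again the higher HOMO libraries, 1.59-fold above HOMO1 and HOMO2. The WT mean was 2370 ± 269 CPM against a HOMO mean of 903 ± 249 CPM (SD, n = 4 each). The log2 fold change was −1.39 (standard error 0.23, 95% confidence interval −1.91 to −0.87, edgeR adjusted p = 0.00855). It stayed between −1.53 and −1.25 with 1 library left out (adjusted p from 0.00812 to 0.0402), and the call was lost with the near-identical libraries summed (−1.37, adjusted p = 0.299). *Thbs2* had the 10th largest drop in mean CPM of all genes in the fit. No annotated exon of another gene overlaps it.

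Levels of different thrombospondins were compared per length, as CPM per kilobase of merged exons. On this scale *Thbs1* ranked 4 to 7 among the 14062 genes with a length in the WT libraries, and 63 to 232 in the HOMO libraries. *Thbs2* ranked 72 to 171 in WT and 193 to 393 in HOMO. Both therefore stayed among the more abundant transcripts of HOMO pFBs after the downregulation. The level per length was 1965 ± 315 for *Thbs1* and 338 ± 38.3 for *Thbs2* in WT (SD, n = 4), and 276 ± 156 for *Thbs1* and 129 ± 35.6 for *Thbs2* in HOMO (SD, n = 4). These were followed by *Thbs3* at 5.602 ± 3.95 in WT and 4.38 ± 2.02 in HOMO, and the order *Thbs1*, *Thbs2*, *Thbs3* held in all 8 libraries. The level of *Comp* was 0.0555 ± 0.0395 in WT and 0.0711 ± 0.0455 in HOMO, and *Thbs4* was last.

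The balance between the members also differed between the genotypes in every library. The ratio of *Thbs1* to *Thbs2* per length was 5.59, 4.41, 6.15 and 7.37 in WT1 to WT4. The HOMO ratios were 1.33, 1.55, 2.87 and 2.34. The highest HOMO ratio was below the lowest WT ratio. *Thbs1* made up 84.9% ± 2.75 (SD, n = 4) of the summed level of the 5 thrombospondins in WT, with a range from 81.4% to 88.0%, and 64.8% ± 7.88 (SD, n = 4) in HOMO, from 56.5% to 73.4%. The share of *Thbs2* was 14.9% ± 2.73 in WT and 34.1% ± 7.89 in HOMO, and that of *Thbs3* was 0.253% ± 0.185 and 1.08% ± 0.143. The summed level was 2309 ± 303 CPM per kilobase in WT and 410 ± 191 in HOMO (SD, n = 4), 5.64-fold lower in HOMO. These shares are a description and were not tested.

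**Figure D2:**
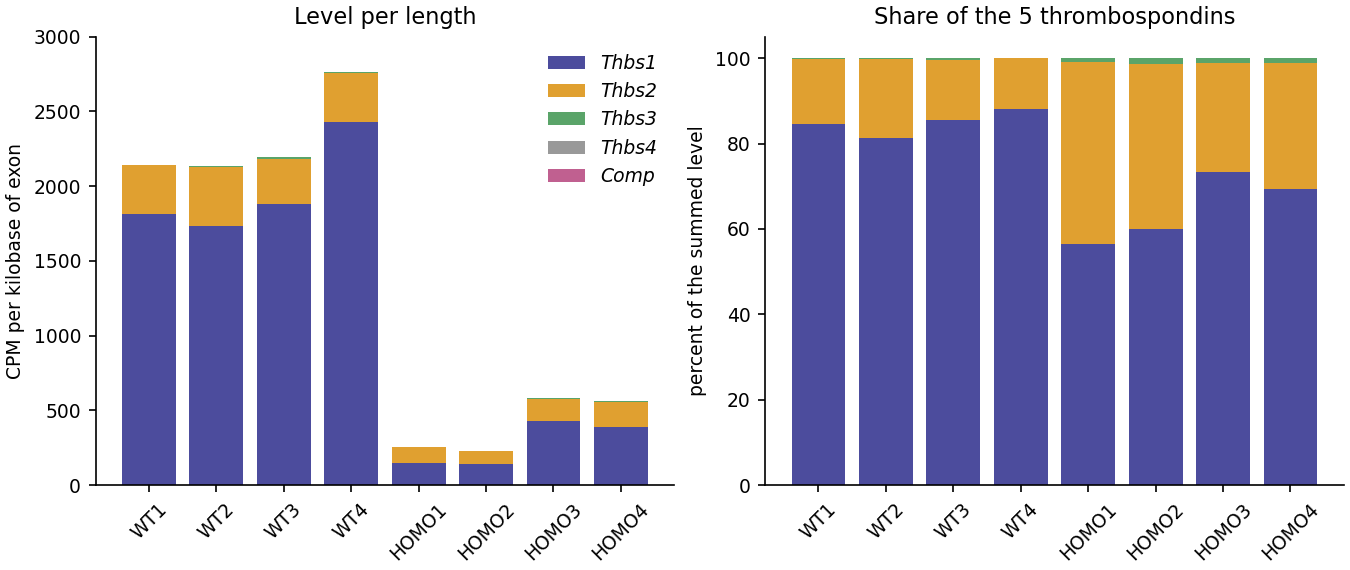
Stacked levels of the 5 thrombospondins per library, as CPM per kilobase of exon (left) and as percent of their sum (right). The sum lies between 2135 and 2762 in WT and between 231 and 585 in HOMO, and the share of *Thbs2* is larger in each HOMO library than in any WT library; *Thbs4* and *Comp* are too low to be seen.

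*Thbs3* (ENSMUSG00000028047.11, chr3:89215180-89226837, plus strand), expressed in developing bone among other tissues, had 412, 494, 943 and 248 reads over WT1 to WT4. The counts over HOMO1 to HOMO4 were 256, 467, 599 and 571. The genotypes overlapped, since WT4 at 9.60 CPM was the lowest of the 8 libraries and WT3 at 54.1 CPM the highest, 5.64-fold above WT4. The log2 fold change was −0.35 (standard error 0.52, 95% confidence interval −1.54 to 0.83, edgeR adjusted p = 0.675), an interval that holds both falls and rises. Without WT3 the value was 0.23. The median of 683 genes of chromosome 3 was 0.37 higher in WT3 than in the mean of the other WT libraries on the log2 scale, and the part of this in the *Thbs3* level was not tested. Within HOMO, HOMO3 and HOMO4 were 2.31-fold above HOMO1 and HOMO2. *Mtx1* on the opposite strand covers 6.59% of the exon bases of *Thbs3*.

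The other pentameric members were barely counted. *Thbs4* (ENSMUSG00000021702.7, chr13:92751590-92794818, minus strand), known from tendon and heart, had 0 counts in the 4 WT libraries, HOMO1 and HOMO3, and 1 count each in HOMO2 and HOMO4 (exact permutation test on CPM, two-sided p = 0.429). A count of 0 allows a level of up to 0.116 to 0.172 CPM in the WT libraries, taking 3 counts as the upper limit, and no difference was detectable at this depth. *Comp* (ENSMUSG00000031849.9, chr8:70373558-70382066, plus strand), a cartilage and tendon protein, was also close to the limit of counting, with 6, 3, 2 and 2 reads over WT1 to WT4 against 2, 5, 4 and 8 over HOMO1 to HOMO4. The levels overlapped, at 0.165 ± 0.117 CPM in WT and 0.211 ± 0.135 CPM in HOMO (SD, n = 4, exact permutation test, two-sided p = 0.543). The median log2 fold change of 790 genes of chromosome 8, which holds *Comp*, was 0.37, and its part in the *Comp* level was not tested. The smallest p this permutation test can give with 4 libraries against 4 is 0.0286. Of 8 cartilage and tendon markers, 5 were in the fit, 2 with estimates above 0 and 3 below. Their median was −0.85, beside −0.04 for all genes in the fit. The 1 called, beside 12.1% of all genes, was *Fmod*, a collagen-binding proteoglycan of tendon, at −1.05 (edgeR adjusted p = 0.0394, and 0.39 with the pairs summed). *Tnmd*, which defines tendon cells, had at most 3 counts in every library.

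*Cd36* (ENSMUSG00000002944.15, chr5:17781690-17888801, minus strand) was a gene of few counts, with 30, 85, 858 and 385 over WT1 to WT4. Over HOMO1 to HOMO4 the counts were 9, 7, 52 and 34. The counts of WT3 and WT4 made up most of the WT mean, 12-fold above WT1 and WT2, and HOMO3 and HOMO4 were 7.08-fold above HOMO1 and HOMO2. At 1.69 CPM, WT1 lay below HOMO3 at 2.64 CPM and HOMO4 at 1.70 CPM, so the genotypes overlapped. The WT mean was 17.4 ± 22.0 CPM against a HOMO mean of 1.24 ± 1.14 CPM (SD, n = 4 each). The log2 fold change of −3.83 had the widest interval of the members in the fit, −6.52 to −1.14, and did not pass the test (standard error 1.19, edgeR adjusted p = 0.0649). DESeq2 called it, at −3.81 (DESeq2 adjusted p = 0.00939). With WT3 and WT4 left out, which was chosen with the data in view, the log2 fold change was −1.15, on the near-identical WT1 and WT2 alone, without WT3 alone it was −2.48 (edgeR adjusted p = 0.119), and with the near-identical libraries summed it was −4.17 (edgeR adjusted p = 0.369).

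As a summed level, macrophage markers had the same highest and lowest libraries as *Cd36*. The summed level of the 11 markers was 140, 169, 2260 and 1319 CPM in WT1 to WT4. The HOMO sums were 59.6, 64.7, 182 and 206 CPM. WT3 and WT4 were thus the highest libraries in both measures, and HOMO1 and HOMO2 the lowest. Between these the order differed. The sum was higher in HOMO3 and HOMO4 than in WT1 and WT2, while *Cd36* was higher in WT2, at 3.65 CPM, than in HOMO3 and HOMO4. *Lyz2*, at 1707 CPM, made up most of the sum in WT3. *Cd14* had the 1 estimate above 0 in the list, at 0.25. In edgeR 0 of the 11 were called, 7 had an unadjusted p under 0.05, beside 32.3% of all genes in the fit, and DESeq2 called 5, beside 16.5% of all genes. The median log2 fold change of the list was −2.65, beside −0.04 for all genes in the fit, and the lowest adjusted p was that of *C1qa*, a complement gene of tissue macrophages, at −4.64 (edgeR adjusted p = 0.0502). No marker of the list was at 0 in all libraries, and the part of macrophages in the *Cd36* level was not tested. With WT3 and WT4 left out, the log2 fold change of *Thbs1* was −2.69 and that of *Thbs2* −1.48; this leaves WT1 and WT2, which are near-identical, so no p-value is read from it.

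**Figure D3:**
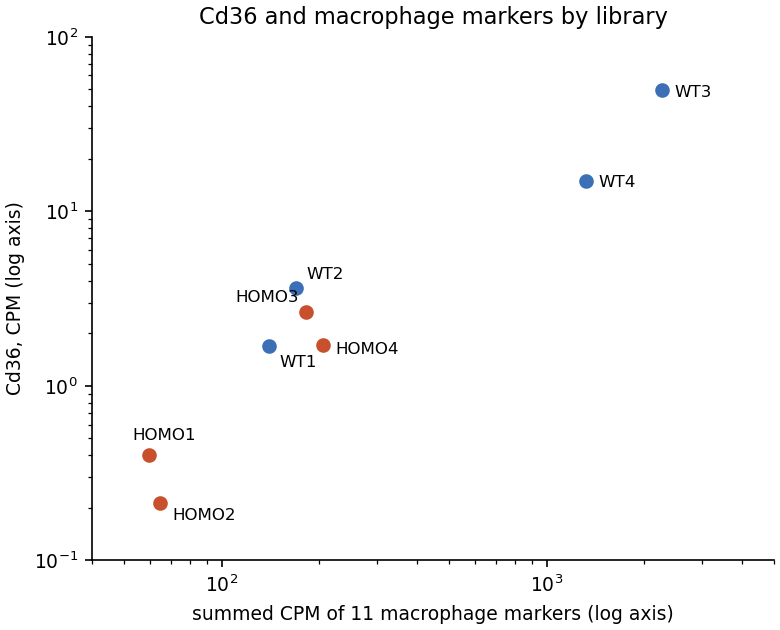
*Cd36* level against the summed level of 11 macrophage markers in each library, both in CPM on log axes, WT in blue and HOMO in red. WT3 and WT4 lie at the upper right, at 49.2 and 14.9 CPM of *Cd36*, and WT1 and WT2, at 1.69 and 3.65 CPM, lie close to HOMO3 and HOMO4, at 2.64 and 1.70 CPM.

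The other cell types known for CD36 or for thrombospondin 1 were also looked at by their markers. Counts called by edgeR here stand beside 12.1% of all genes called either way, 6.18% called lower and 5.94% called higher. Those by DESeq2 stand beside 16.5%, those at an unadjusted p under 0.05 beside 32.3%, and medians beside −0.04 for all genes in the fit. Endothelial markers summed to 2.36 to 6.48 CPM in WT and 3.39 to 6.54 CPM in HOMO, with *Tie1*, *Cldn5* and *Emcn* at or under 3 counts in every library. Of these 8, edgeR tested 2 and called 0, 1 had an unadjusted p under 0.05, and DESeq2 called 0. The 2 went in opposite directions, *Egfl7* at 1.09 (edgeR adjusted p = 0.116, the lower) and *Vwf* at −0.54 (edgeR adjusted p = 0.524). Platelets store thrombospondin 1, and 2 of their 7 markers were in the fit. *Itga2b*, the platelet integrin subunit, was upregulated by 1.24 on the log2 scale (edgeR adjusted p = 0.0344), while *Gp1ba* at 1.11 was not called. *Gp1bb* and *Gp6* had 0 counts in all libraries, and *Ppbp* and *Gp9* were at or under 3. *Pf4* went the other way, with 2, 0, 16 and 8 counts over WT1 to WT4 and 1, 1, 0 and 0 over HOMO1 to HOMO4. Of 7 adipocyte and lipofibroblast markers 4 were in the fit, with a median log2 fold change of −0.31, and *Adipoq* had 0 counts. The called one was *Lpl*, lipoprotein lipase, which was upregulated by 4.14 (edgeR adjusted p = 0.00973), while *Plin2* at −0.44, *Fabp4* at −0.63 and *Pparg* at −0.19 were not called. Of 7 mesothelial markers 6 were in the fit, 4 with estimates above 0 and 2 below, with a median of 0.16, and *Wt1* was called, upregulated by 3.36 (edgeR adjusted p = 0.0166). *Cdh1*, the 1 of 5 epithelial markers in the fit, was upregulated by 2.77 (edgeR adjusted p = 0.0462). It was near the limit of counting, at 0.226 ± 0.238 CPM in WT and 1.67 ± 0.466 CPM in HOMO (SD, n = 4 each). Outside the fit, counts over HOMO1 to HOMO4 were 1, 48, 99 and 3 for *Sftpc* and 0, 10, 15 and 0 for *Sftpb*. *Epcam* had 0, 1, 0 and 45 there. No WT library had more than 1 count of these 3 genes, and *Krt5* had 0 in all libraries. Of 7 smooth muscle and pericyte markers, all in the fit with estimates below 0 and a median of −0.97, 2 were called. These were *Pdgfrb* and *Rgs5*, downregulated at −0.97 (edgeR adjusted p = 0.0251) and −5.20 (edgeR adjusted p = 0.0486). *Rgs5* had 59, 90, 12 and 932 counts over WT1 to WT4 and 2, 0, 13 and 10 over HOMO1 to HOMO4. WT4 thus made up most of its WT mean, and its HOMO counts were near 0. With the pairs summed none of these calls held, with edgeR adjusted p from 0.235 for *Lpl* to 0.383 for *Cdh1*. The part of any of these cells in the thrombospondin levels was not tested.

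*Cd47* (ENSMUSG00000055447.19, chr16:49800533-49915010, plus strand) had 1695, 2326, 1425 and 1958 counts over WT1 to WT4. The HOMO libraries had 2001, 2913, 1695 and 1656. Every library lay between 75.8 and 99.8 CPM, and the 4 HOMO libraries, at 83.0 to 89.2 CPM, lay within the range of the WT libraries. The WT mean was 88.2 ± 11.3 CPM and the HOMO mean 86.6 ± 2.73 CPM (SD, n = 4 each). The log2 fold change was −0.03 with a standard error of 0.12 and a 95% confidence interval from −0.31 to 0.26, and the gene was not called (edgeR adjusted p = 0.909). *Cd47* had the narrowest interval of the 5 members in the fit. Per length, its level was 14.05 ± 1.79 in WT and 13.8 ± 0.436 in HOMO (SD, n = 4), above *Thbs3* in all 8 libraries and below *Thbs1* and *Thbs2* in all 8.

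**Figure D4:**
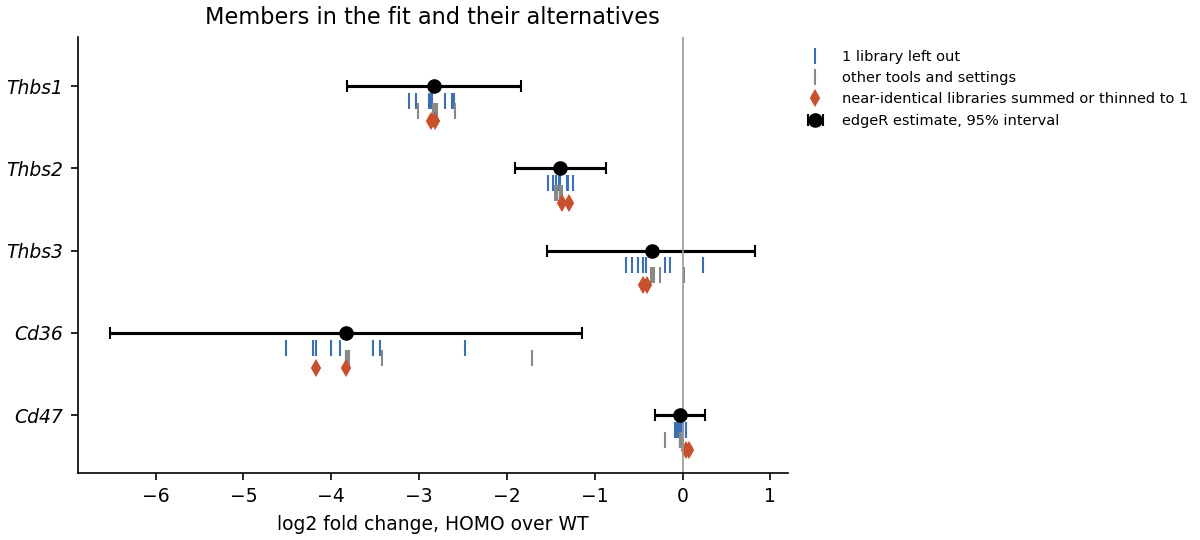
Log2 fold change of the 5 members in the fit, HOMO over WT, with the edgeR estimate and 95% confidence interval (black), the values with 1 library left out (blue), under other tools and settings (grey) and with near-identical libraries summed or thinned to 1 (red diamonds). The values of *Thbs1* stay between −3.12 and −2.59 and those of *Thbs2* between −1.53 and −1.25; those of *Thbs3* and *Cd47* fall on both sides of 0.

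The counts called in the next 5 lists stand beside 12.1% of all genes called either way, 6.18% called lower and 5.94% called higher, and their medians beside −0.04 for all genes. Among 11 other receptors and coreceptors of thrombospondins, 1 was called higher and 0 lower, with a median log2 fold change of −0.37. The called gene was *Itga3*, the partner of integrin beta 1 in the receptor that binds the amino end of thrombospondin 1. Its level rose from 37.4 ± 15.5 CPM in WT to 122 ± 31.1 CPM in HOMO (SD, n = 4 each), by 1.70 on the log2 scale (edgeR adjusted p = 0.012). Of 11 partners and relatives of CD36 and CD47, 10 were in the fit, 0 were called higher and 1 lower, with a median of −0.67. This was *Vegfa*, the angiogenic factor that thrombospondin 1 binds and counters, with 341 ± 94.5 CPM in WT against 151 ± 9.10 CPM in HOMO (SD, n = 4 each, log2 fold change −1.18, edgeR adjusted p = 0.0123).

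Of 14 genes of latent TGF-beta and its response, all in the fit, 1 was called higher and 4 lower, beside 5.94% and 6.18% of all genes, with a median of −0.85 beside −0.04. *Tgfb2*, a TGF-beta ligand, was downregulated at −1.18 (edgeR adjusted p = 0.00358). *Pmepa1*, a feedback inhibitor of the pathway, was downregulated at −1.56 (edgeR adjusted p = 0.0203). *Ltbp4*, a latent TGF-beta binding protein, went the other way, at 2.62 (edgeR adjusted p = 0.00904), and its relative *Ltbp2*, named after its value was seen, was at −0.88 (edgeR adjusted p = 0.0469). The other ligand genes, *Tgfb1* at 0.19 and *Tgfb3* at 0.92, named for their role, were not called.

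Of 14 proteases and matrix partners, 13 were in the fit, 0 were called higher and 1 lower, with a median of −0.11. The called gene was *Matn4*, a matrilin, whose WT level was only 1.74 ± 0.284 CPM (SD, n = 4, log2 fold change −1.99, edgeR adjusted p = 0.00855). Of 22 other proteins with type 1 repeats, 15 were in the fit, 2 were called higher and 5 lower, beside 5.94% and 6.18% of all genes, with a median of −0.22. *Rspo3* and *Rspo2*, R-spondins that enhance Wnt signaling, were downregulated, at −1.74 (edgeR adjusted p = 0.00854) and −3.96 (edgeR adjusted p = 0.0217). *Rspo2* had 78, 85, 622 and 178 counts over WT1 to WT4 and 16, 46, 8 and 13 over HOMO1 to HOMO4. WT3 thus made up most of its WT mean, and its HOMO mean was only 0.791 CPM. *Adamtsl4*, which codes for a fibrillin-binding matrix protein, was downregulated at −1.11 (edgeR adjusted p = 0.0159). *Sema5a*, a semaphorin, was upregulated at 1.66 (edgeR adjusted p = 0.00195), so genes sharing this repeat with *Thbs1* and *Thbs2* changed in both directions. With the near-identical libraries summed, edgeR's adjusted p of the called genes named from these 5 lists was from 0.163 for *Sema5a* to 0.428 for *Ltbp2*, and 0 were called.

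**Figure D5:**
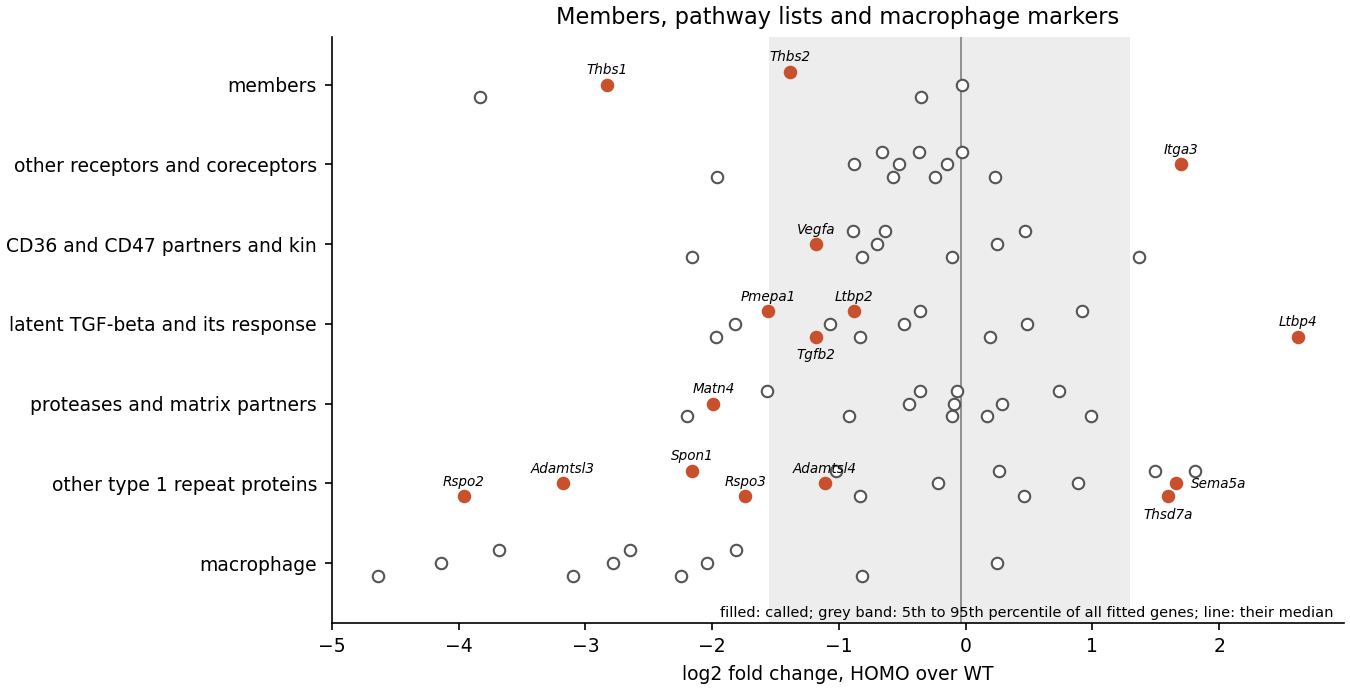
Log2 fold change, HOMO over WT, of the genes in the fit from the members, 5 pathway lists and the macrophage markers; filled red points with names were called, open points were not (1 gene of the TGF-beta list is not drawn), the grey band holds the middle 90% of all genes in the fit and the line is their median. Called genes lie on both sides of 0 in the TGF-beta and type 1 repeat lists, and 10 of the 11 macrophage markers lie below 0, none called.

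The genes whose log2 CPM followed that of *Thbs1* most closely over the 8 libraries were *Hoxb5* (Pearson r = 0.999), *Lynx1* (0.998), *Pdlim1* (0.997), *Hoxb8* (0.996) and *Acbd5* (0.996), and r with *Thbs2* was 0.978. *Hoxb5* was at 31.5, 28.6, 35.0 and 37.5 CPM in WT1 to WT4 and at 1.74, 1.91, 6.18 and 5.71 CPM in HOMO1 to HOMO4, with the same order of the HOMO pairs as *Thbs1*. For *Thbs2* they were *Apol6* (0.993), *Mgp* (0.992), *Slc39a6* (0.990), *Pdk4* (0.987) and *Dclk1* (0.987). *Mgp*, a matrix inhibitor of calcification, was the most abundant of these, at 1818 CPM in WT and 117 CPM in HOMO on average. In all, 225 of 14149 genes had r above 0.95 with *Thbs1* and 145 with *Thbs2*. The libraries are split by genotype and hold near-identical pairs, and the part of this in the r values was not tested.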

How the data were processed

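The deposited table holds gene counts, whole numbers of reads per gene, made by the authors with fastp, STAR (genome mm10) and featureCounts from paired-end reads, without normalization. Versions, annotation and strand setting are not given in the sources used here. Libraries were grouped by the genotype in their labels, and 0 columns were left aside.

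Counts were tested with R 4.3.3 and edgeR 4.0.16 (TMM, filterByExpr, quasi-likelihood F test of genotype, Benjamini-Hochberg over 14150 genes), with DESeq2 1.42.0 and limma 3.58.1 (voom with quality weights) as alternatives, after tests on simulated data. CPM use TMM-scaled library sizes, and log2 CPM have a prior count of 2. Standard errors are the log2 fold change over the square root of F. Members outside the fit were tested over the 70 assignments of libraries to genotypes. Depth was 17236521 to 31987790 counts, so 3 counts are 0.0908 to 0.172 CPM; this limit covers counting error only. Positions and lengths are from GENCODE M21, and coding sequences were translated and aligned with Biopython 1.88. Tables and figures used scipy 1.17.1, pandas 2.3.3, matplotlib 3.10.9, numpy 2.4.6 and Python 3.11.15.

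Members and lists (receptors, CD36 and CD47 partners, TGF-beta, proteases, type 1 repeats, and markers of fibroblasts, macrophages, endothelium, adipocytes, platelets, mesothelium, pericytes, epithelium, cartilage and tendon) were chosen with earlier results of these data known. Named were all members, up to 4 called genes a list by adjusted p or else the gene of lowest adjusted p, and the 5 genes most like *Thbs1* and *Thbs2*. Alternatives were other normalizations, filters, dispersions and tools, the replicate number as a block, no fold threshold, leaving out libraries, and summing or thinning near-identical libraries. Replicate numbers were not taken as pairs. The human transgene and protein data were not analysed here. 1 gene of the TGF-beta list is in its counts and is not reported here.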

Additional observations from a re-analysis of the deposited data

Results flagged for a closer look

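The summed level of the 5 thrombospondins per length was 11.43 on the log2 scale in WT4, apart from the other WT libraries at 11.06 to 11.1. The gap to the nearest of them was 0.894 of the range of the group, above Dixon's 95% critical value for 4 samples. It was the 1 such case in 14 groups of values looked at, and chance gives about 1 in 20. Most of the sum is *Thbs1*, which at 14757 CPM was also highest in WT4. The near-identical WT1 and WT2 narrow the spread of the others.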

How the results depend on the processing

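*Thbs1* kept its direction and its call in 18 of 20 alternatives (−3.12 to −2.59), and *Thbs2* in 18 of 20 (−1.53 to −1.25). For both genes, some of the 18 carry no weight for the call. Leaving out WT3 and WT4 was chosen with the data in view and keeps near-identical WT libraries alone, so its call is not read. The alternative without a fold threshold reuses the main fit and could not lose a call. The exceptions were the near-identical libraries summed and 1 library kept of each near-identical set, which have 5 units. There 0 members and 0 genes were called, and with 1 of each set (1753 genes at an unadjusted p under 0.05 of 14503) *Thbs1* was −2.82 (edgeR adjusted p = 0.257) and *Thbs2* −1.29 (edgeR adjusted p = 0.31). The estimate of *Thbs3* turned to 0.02 under limma-voom and 0.23 without WT3 (range −0.64 to 0.23 with 1 library left out). That of *Cd47* turned to 0.01 without WT1, 0.04 without WT2, 0.01 without HOMO4 (range −0.09 to 0.04 with 1 library left out), 0.04 with near-identical libraries summed and 0.07 with 1 of each set, and under limma-voom it was −0.20 (limma adjusted p = 0.0285). *Cd36* ranged from −4.52 to −2.48 with 1 library left out, lowest without HOMO3 and nearest 0 without WT3 (edgeR adjusted p = 0.119), and was also called without WT1 (−4.21, edgeR adjusted p = 0.0468), and over its 20 alternatives the adjusted p was from 0.00939 to 0.413; limma-voom gave −1.71. The share of *Thbs1* among thrombospondins moved by less than 1 SD with the longest transcript as length or 1 library left out. All genes called, 1716, became 2913 with DESeq2, 3573 with limma-voom, 947 with the replicate block, 3117 with WT3 and WT4 left out, and 507 to 2192 with 1 library left out; the causes were not tested. Members called were 2 to 3 with 1 library left out. Replicate numbers did not pair the libraries: deviations of same-numbered libraries correlated at −0.124 to 0.0141, and every WT library correlated best with a HOMO library of another number. With the number as a block, *Cd36* was −3.42 (edgeR adjusted p = 0.0212), the 1 member whose call changed. Depth limits statements on *Thbs4* and *Comp*, and *Matn4* and *Cdh1* rest on means under 2 CPM. The HOMO means of *Rspo2* and *Rgs5* were 0.791 and 0.312 CPM, and 1 library made up most of the WT mean of each.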

Other observations

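*Lpl*, lipoprotein lipase, was at 21.6, 28.8, 175 and 66.0 CPM over WT1 to WT4 and at 1653, 1704, 879 and 903 CPM over HOMO1 to HOMO4, highest in HOMO1 and HOMO2, where *Thbs1*, *Thbs2* and *Cd36* were lowest. The summed level of the other 6 adipocyte and lipofibroblast markers overlapped between the genotypes and did not share the rise of *Lpl* in HOMO. It was 48.8, 50.6, 152 and 83.9 CPM over WT1 to WT4 and 64.1, 65.1, 60.7 and 59.8 CPM over HOMO1 to HOMO4. Within the genotypes, WT3 was the highest WT library in both measures, and HOMO1 and HOMO2 were the higher HOMO libraries in both. The part of such cells in the thrombospondin levels was not tested.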
